A study of Mus musculus with 58 samples.

Results

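The 3 Period genes, Per1, Per2 and Per3, were examined for binding of BMAL1 and CLOCK in mouse fibroblasts and mouse liver. Their members were the entries of 2 BMAL1 peak lists that the authors annotated to one of these genes, together with every CLOCK peak whose centre lay within 5000 bp of such an entry. This gave 23 of 3172 listed peaks. They were 8 of 463 BMAL1 peaks and 4 of 1016 CLOCK peaks in NIH3T3 cells, and 8 of 1254 BMAL1 peaks and 3 of 439 CLOCK peaks in liver.

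PER proteins are the negative limb of the mammalian circadian clock. The paired transcription factors BMAL1 and CLOCK bind E-box elements and activate the Per and Cry genes, and the PER and CRY proteins then accumulate, enter the nucleus and repress BMAL1 and CLOCK. Per1 and Per2 encode the core repressors of this loop and are also induced by glucocorticoids and other outside signals, while mice without Per3 keep their behavioural rhythm with mild changes.

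The study comprised 58 samples and compared BMAL1 targets between a cell line and a tissue. NIH3T3 is an established mouse embryonic fibroblast line, whose clocks had been synchronised by 100 nM dexamethasone for 30 min. From these cells came 7 BMAL1 libraries, at 12 to 38 h after dexamethasone, and 6 for CLOCK, at 18 to 38 h, made from combined immunoprecipitations. Liver CLOCK binding came from 1 sample, called pooled in its title, of C57/BL6 mice aged 12 to 14 weeks that were kept in 12 h light and 12 h dark with free access to food. For BMAL1 in liver the authors reprocessed their earlier data of zeitgeber time 6. The labels state no time for the liver CLOCK sample. The libraries of RNA, RNA polymerase II and input DNA were not used here. All NIH3T3 cells had received dexamethasone, and no library from untreated NIH3T3 cells entered any list. The labels give no dexamethasone for the liver CLOCK sample, so cell source and treatment cannot be told apart.

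The values were positions in mm9 coordinates with no peak height, score or value per library. Replicate error and depth are therefore unknown, no test was made, and counts at the Period genes are set beside the same count over the whole list. Peaks of one gene stand close together and are not independent of each other. A peak list has no expression level either, so the identity of the cells was not checked by markers.

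The sequences below, from promoters of Per1 and Per3, were searched for a few exact strings of known clock elements alone. They are RefSeq windows of assembly GRCm38.p6 that run from 250 bp before to 50 bp after a transcription start, printed 5′ to 3′. Windows matched Per1, with 2 start sites, and Per3, with 1. No window matched Per2, so its promoter was not searched. The first covers chr11:69098699-69098998 on the plus strand, and its capitals mark an E-box (CACGTG), the element that BMAL1 and CLOCK bind. The second covers chr4:151044616-151044915 on the minus strand, and its capitals mark D-box letters (TTATGTAA), the element of the PAR bZIP factors DBP, TEF and HLF and of NFIL3.

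Per1: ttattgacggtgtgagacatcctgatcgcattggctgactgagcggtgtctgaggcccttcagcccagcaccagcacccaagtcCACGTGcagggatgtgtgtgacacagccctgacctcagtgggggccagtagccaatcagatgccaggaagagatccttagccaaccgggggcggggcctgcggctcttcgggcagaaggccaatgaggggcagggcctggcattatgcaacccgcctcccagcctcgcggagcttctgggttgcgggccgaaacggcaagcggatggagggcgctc

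Per3: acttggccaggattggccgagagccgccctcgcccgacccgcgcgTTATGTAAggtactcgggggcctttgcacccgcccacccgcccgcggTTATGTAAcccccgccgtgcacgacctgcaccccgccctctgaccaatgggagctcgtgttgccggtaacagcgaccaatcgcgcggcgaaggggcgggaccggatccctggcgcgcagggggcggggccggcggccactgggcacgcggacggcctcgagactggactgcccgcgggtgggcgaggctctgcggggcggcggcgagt

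The E-box of the Per1 window lay 166 to 161 bp before its start site. CACGTG, which reads the same on both strands, was present in 7.15% of all 32851 promoter windows, and CACGTG or CACGTT on either strand in 11.4%. The other Per1 window, with its start at 69100152, held neither. The Per3 window, which was 73.3% G and C, held neither as well, but had D-box letters at 205 to 198 bp and at 158 to 151 bp before its start site. D-box letters, searched as TTATGTAA or TTACGTAA on both strands after the Per3 window had been read, were present in 1.06% of all windows. The absence of these letters applies to the 300 bases of a window alone, and other variants of the elements were not searched. Among 15 further clock genes with such windows, 4 held CACGTG in a window. That counts genes, some with several windows, so it is not a like comparison with the 7.15% of windows.

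Per1, an early target of signals that reset the clock, carried BMAL1 peaks at 2 start sites. The authors' signed distances place these starts at 68908720 and 68912436 on the plus strand of chromosome 11, 3717 bp apart. The downstream position rests on the distance of 1 peak alone. At the upstream start, BMAL1 peaks covered chr11:68908358-68908407, 338 bp upstream, and chr11:68908641-68908699, 50 bp upstream. Their centres were 287.5 bp apart. The third peak covered chr11:68912250-68912308, 158 bp upstream of the downstream start. It spanned 187 to 129 bp before that start in mm9, and the E-box printed above lay 166 to 161 bp before a RefSeq start in GRCm38.p6. That RefSeq start was 3841 bp from the 5′ end of the gene. Whether both annotations mean the same start was not tested, because no position was carried between the builds.

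Per2, which encodes the repressor whose loss most affects behavioural rhythms, had 3 BMAL1 peaks around a single start at 93355907 on the minus strand of chromosome 1. The peak at chr1:93355864-93355925 spanned the start, from 18 bp before to 44 bp after it, with an authors' distance of 11 bp. The others covered chr1:93356109-93356158, 226 bp upstream, and chr1:93356250-93356299, 367 bp upstream. Neighbouring centres were 239 and 141 bp apart. All 3 peaks thus fell between 392 bp upstream and 44 bp downstream.

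Per3 had 2 BMAL1 peaks at a start at 150418774 on the minus strand of chromosome 4. One covered chr4:150418741-150418800 and spanned the start, with an authors' distance of 4 bp. The other covered chr4:150419053-150419102, 303 bp upstream. Their centres were 307 bp apart, close to the 287.5 bp between the peaks at the upstream Per1 start.

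The Period genes shared an arrangement of a peak close to the start with at least 1 more peak upstream, except at the downstream Per1 start, which had 1 peak. All 8 peaks lay within 1000 bp of an annotated start, against 71.7% of the NIH3T3 and 44.7% of the liver list. Within 200 bp the count was 4 of 8, against 48.4% of the NIH3T3 and 27.1% of the liver list. Another BMAL1 peak stood within 500 bp for 7 of 8, against 37.6% of all NIH3T3 and 19.0% of all liver peaks. Genes with 2 or more peaks made up 23.8% of the 345 genes in the NIH3T3 list and 17.1% of the 985 in the liver list. Genes with 3 or more, as at Per1 and Per2, made up 5.22% in NIH3T3 cells and 4.26% in liver. When peaks closer than 1000 bp were joined, the 8 entries formed 4 loci. Peaks near a start were not particular to the Period genes. Of the further clock genes described below that had BMAL1 peaks in NIH3T3 cells, 5 of 10 had all of them within 1000 bp. In liver this held for 6 of 12.

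**Figure D1:**
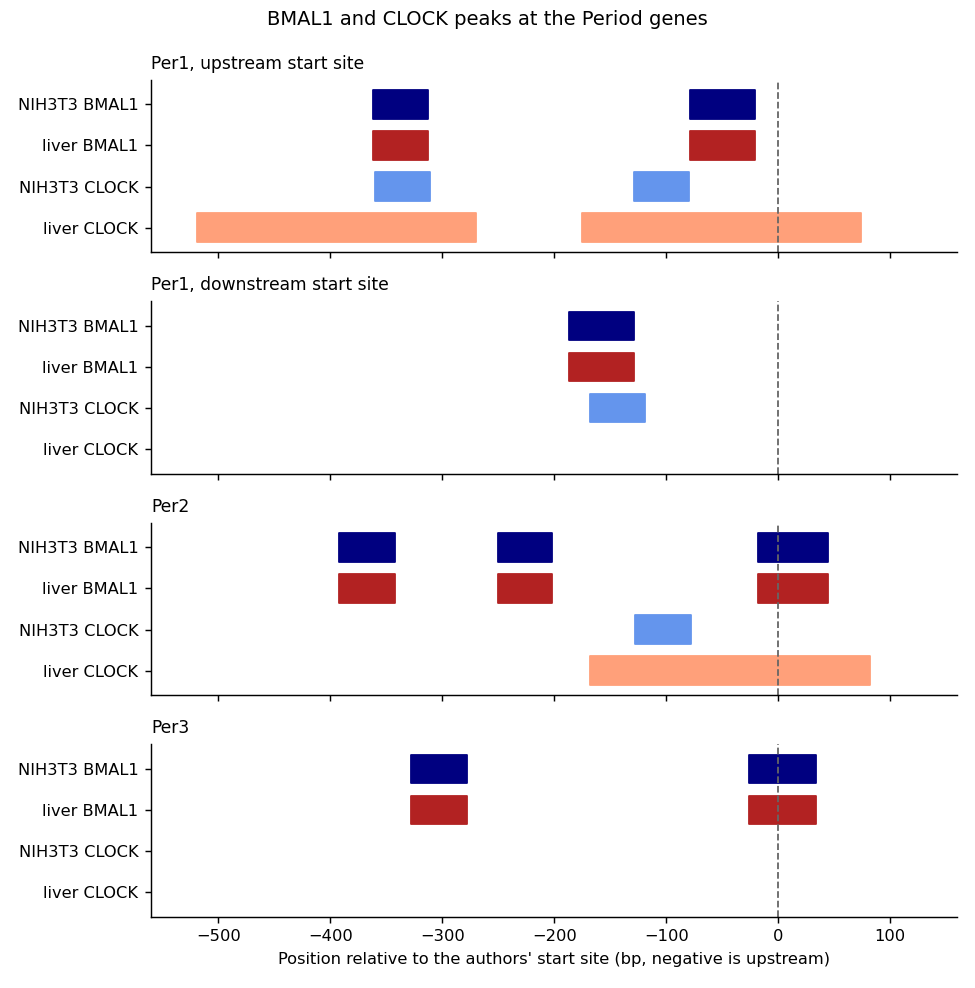
Positions of all 23 BMAL1 and CLOCK peaks at the Period genes, in bp from the authors' start site (dashed line), with bars to scale. BMAL1 bars are the same in both contexts at each site, CLOCK bars are present at Per1 and Per2, and the Per3 panel has BMAL1 bars alone.

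The BMAL1 entries of the Period genes gave no difference between NIH3T3 cells and liver, because they were the same entries. All 8 had the same start, end and distance in both lists and stood on the same lines, 13 to 15 for Per2, 49 to 51 for Per1 and 189 to 190 for Per3. A BMAL1 peak of the other context within 500 bp was present for 59.2% of the NIH3T3 and 21.8% of the liver list. The first 263 entries of the lists were identical and included all 8, so the lists may not have been called separately in each context. The labels do not say how they were assembled.

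CLOCK, the partner of BMAL1, divided the Period genes into Per1 and Per2, with listed CLOCK peaks in both contexts, and Per3, with none. Depth and thresholds of the CLOCK lists are unknown, so a missing peak does not show that CLOCK was absent at Per3. In NIH3T3 cells a CLOCK peak lay within 500 bp of 3 of 3 BMAL1 peaks of Per1, 3 of 3 of Per2 and 0 of 2 of Per3. The total was 6 of 8, against 22.0% of the whole list and 21.1% of its peaks within 1000 bp of a start. In liver the counts were 2 of 3 for Per1, 3 of 3 for Per2 and 0 of 2 for Per3, a total of 5 of 8. The whole liver list had 4.31% and its peaks near a start 5.36%. CLOCK peaks of both contexts stood at 5 of 8, against 6.70% of all NIH3T3 and 2.07% of all liver BMAL1 peaks.

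Among the 263 identical entries alone CLOCK was more frequent than over whole lists. Of these, 27.8% had an NIH3T3 CLOCK peak, 14.8% a liver CLOCK peak and 9.89% both. Joining close peaks left 3 of 4 Period loci with CLOCK in NIH3T3 cells and 2 of 4 in liver, against 19.3% of all 362 NIH3T3 loci and 3.41% of all 1116 liver loci. The 3 BMAL1 peaks of Per2 all relied on a single CLOCK peak in each context. If the intervals themselves had to overlap, 2 of 8 BMAL1 peaks had CLOCK in NIH3T3 cells, both at Per1, and 3 of 8 did in liver, where CLOCK peaks were 250 bp wide instead of 50 bp. Such an overlap was present for 12.5% of the whole NIH3T3 list and 3.91% of the whole liver list.

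**Figure D2:**
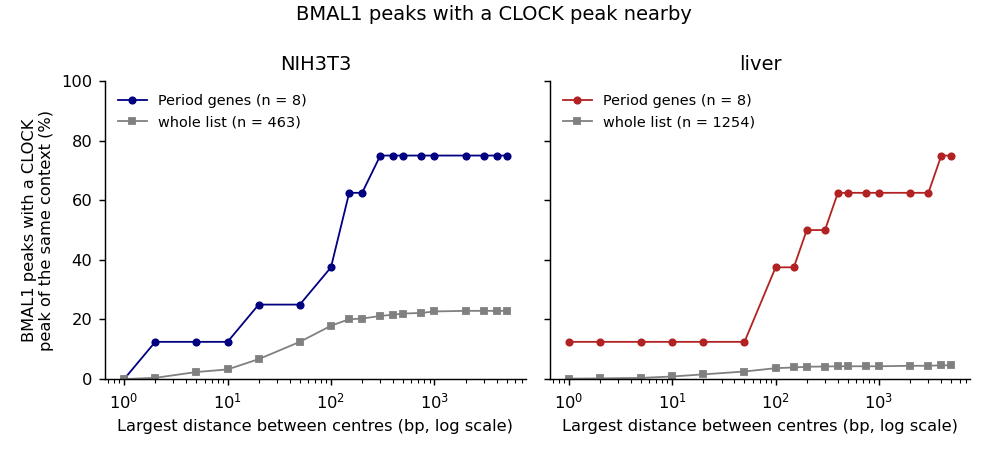
Percentage of BMAL1 peaks with a CLOCK peak of the same context within a given distance between centres (bp, log scale), computed at 18 distances from 1 to 5000 bp, for the Period genes (circles) and the whole list (squares), in NIH3T3 cells (left) and liver (right). At 500 bp the Period genes reached 75.0% in NIH3T3 cells and 62.5% in liver, against 22.0% and 4.31% of the whole lists.

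The CLOCK peaks of Per1 followed its BMAL1 peaks closely. In NIH3T3 cells the peak at chr11:68908360-68908409 had its centre 2 bp from the upstream BMAL1 centre, the one at chr11:68908591-68908640 was 54.5 bp from the next, and the one at chr11:68912269-68912318 was 14.5 bp from the BMAL1 peak of the downstream start. In liver the peak at chr11:68908201-68908450 was 57 bp from the first BMAL1 centre, and the one at chr11:68908545-68908794 was 0.5 bp from the second. Both contexts therefore had CLOCK at both BMAL1 peaks of the upstream start.

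Within the 5000 bp limit, the downstream Per1 start was the single place where the CLOCK lists differed at a Period gene. NIH3T3 cells had a CLOCK peak there, and the nearest liver CLOCK centre was 3609.5 bp from its BMAL1 peak, at the upstream start. The liver list was shorter, came from 1 pooled sample and has no time in its labels, so a missing liver peak does not show that CLOCK was absent.

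At Per2 the CLOCK peak covered chr1:93355986-93356035 in NIH3T3 cells and chr1:93355826-93356075 in liver. Their centres lay 103 bp upstream of the start in NIH3T3 cells and 43 bp upstream in liver, which is between the BMAL1 peak at the start and the next one upstream. In NIH3T3 cells the CLOCK centre was 116, 123 and 264 bp from the BMAL1 centres, and in liver it was 56, 183 and 324 bp away. The NIH3T3 CLOCK peak overlapped none of the 3 BMAL1 intervals, and the liver peak overlapped the one at the start.

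CLOCK peaks of Per1 and Per2 recurred between contexts at nearly the same place. A liver CLOCK peak within 500 bp was found for 3 of 4 NIH3T3 CLOCK peaks, against 2.66% of all 1016, and an NIH3T3 peak for 3 of 3 liver CLOCK peaks, against 6.38% of all 439. The centres of these pairs were 59 and 54 bp apart at Per1 and 60 bp apart at Per2. Over all 28 liver CLOCK peaks with such a partner the median distance was 72.5 bp, with a range of 0 to 494 bp. As liver CLOCK intervals were 250 bp wide and NIH3T3 ones 50 bp, shifts of 54 to 60 bp were not read as different sites. The Period CLOCK peaks were chosen for lying near a BMAL1 entry, so the shares of all CLOCK peaks are not a like comparison. Of all 1016 NIH3T3 CLOCK peaks, 7.87% had an NIH3T3 BMAL1 centre within 500 bp. No share was computed for CLOCK peaks with BMAL1 alone.

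Per3 lay far from any listed CLOCK peak. The nearest CLOCK centre on chromosome 4 was 2884044 bp from a Per3 BMAL1 peak in NIH3T3 cells and 911883 bp away in liver. A lack of CLOCK within 500 bp was common among genes with grouped BMAL1 peaks, but not seen at 4 further clock genes among them. Of 46 genes with 2 or more identical BMAL1 entries within 1000 bp of a start, 29 had no CLOCK peak of either context within 500 bp of any of them, Per3 included. CLOCK of both contexts at all such entries was found for 4 of the 46, namely Per2, Cry1, Gm129 and Tef. The 46 held 4 of the further clock genes described below, Cry1, Gm129, Dbp and Tef, and none of these was among the 29. Clock genes outside the 46 ranged in NIH3T3 cells from CLOCK at 2 of 2 BMAL1 peaks of Nr1d2 to 0 of 2 of Bhlhe40.

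The 5000 bp limit that defined CLOCK members left out 2 NIH3T3 CLOCK peaks at Per2. The farthest CLOCK peak inside it was 116 bp from a BMAL1 centre. Just outside, peaks at chr1:93350751-93350800 and chr1:93350494-93350543 were 5119 and 5376 bp from the nearest Per2 BMAL1 centre, downstream of the start in the direction of transcription. These 2 peaks stood on lines 341 and 473 of the list, which does not name Per2 for them. Out to 20000 bp there was no further CLOCK peak in either list.

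In the NIH3T3 CLOCK list peaks of Per1 and Per2 stood among the first lines. The list is not in order of position, and the labels do not say what its order stands for. Per1 peaks of the upstream start were on lines 1 and 2, the Per2 peak on line 5 and the peak at the downstream Per1 start on line 23 of 1016. The list names Per1 for lines 1 and 2 and Per2 for line 5. It names Nr1d1 for line 23, although that peak is at Per1. Of the first 100 lines, 53 had an NIH3T3 BMAL1 centre within 500 bp, and of the other 916, 27 did.

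**Figure D3:**
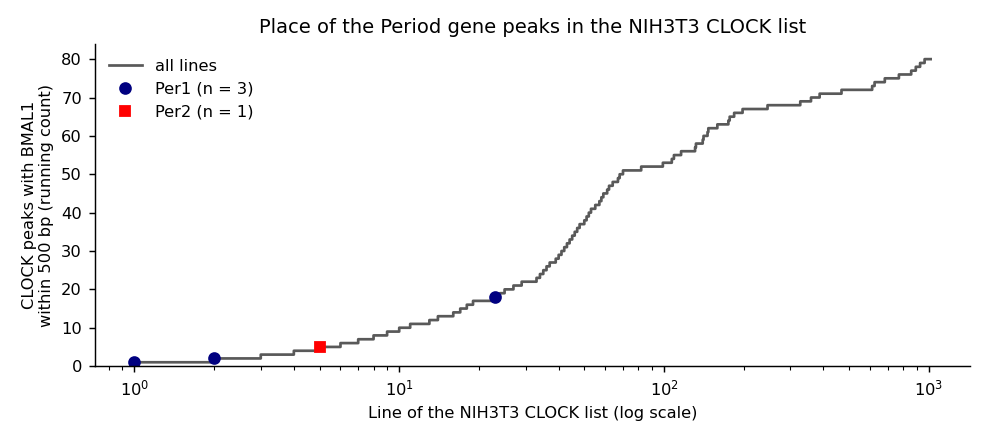
Running count of NIH3T3 CLOCK peaks with an NIH3T3 BMAL1 peak within 500 bp against the line of the list (log scale), with the Period gene peaks marked. The 3 Per1 peaks are on lines 1, 2 and 23 and the Per2 peak on line 5, all within the first 100 lines, which hold 53 of the 80 peaks with BMAL1.

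Other genes of the clock showed where Per1 and Per2 stood among their relatives. In a list of 17 further clock genes, 10 had a BMAL1 peak in NIH3T3 cells and 12 in liver, and 9 in each context had CLOCK within 500 bp of one. Both proteins in both contexts were found for 8 of the 17. The genes with at least as many BMAL1 peaks as Per1 in both lists and some CLOCK in both contexts were Cry1 and Cry2 (partners of PER in repression), Nr1d1 (the REV-ERBα receptor), Gm129 (the repressor CHRONO) and the D-box factors Dbp and Tef. Cry1 and Gm129 had the same counts as Per2, with 3 BMAL1 peaks and CLOCK at 3 of 3 in NIH3T3 cells and in liver. Cry2 had CLOCK at 1 of 3 in NIH3T3 cells and 2 of 3 in liver. Bhlhe41, which encodes the repressor DEC2, also had 3 BMAL1 peaks in each list, with CLOCK at 1 of 3 in NIH3T3 cells and 0 of 3 in liver. Like Per3, Bhlhe40, which encodes the repressor DEC1, had no CLOCK at its BMAL1 peaks in either context, with 2 peaks in NIH3T3 cells and 1 in liver.

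A further list held 14 genes for proteins that act on PER, among them Csnk1d and Csnk1e (the casein kinases that phosphorylate PER) and Btrc and Fbxw11 (the β-TrCP proteins that mark PER for degradation). None of the 14 had a BMAL1 peak in NIH3T3 cells. In liver 1 did, Usp2, a deubiquitinase, at 1126 bp from its start and without CLOCK. Of 21900 protein-coding genes in RefSeq, the NIH3T3 BMAL1 list names 1.40% and the liver list 3.79%, so for 14 genes such low counts are near the background.

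**Figure D4:**
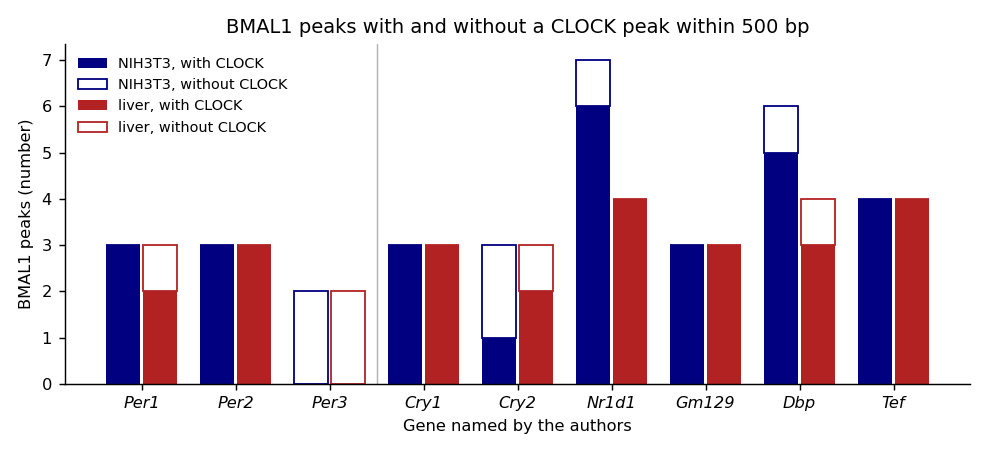
Number of BMAL1 peaks per gene with (filled) and without (open) a CLOCK peak of the same context within 500 bp, in NIH3T3 cells (left bar) and liver (right bar), for the Period genes and the 6 clock genes with at least as many BMAL1 peaks as Per1 in both lists and some CLOCK in both contexts. Per1 had CLOCK at 3 of 3 peaks in NIH3T3 cells and 2 of 3 in liver, Per2 at 3 of 3 in both, and Per3 at 0 of 2 in both.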

How the data were processed

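The authors deposited 4 peak lists with chromosome, start and end, a gene in 3 of them, and a signed distance in bp from peak to start site in the BMAL1 lists. The submitters' processing notes name Bowtie, SAMtools, bedtools and the build mm9, with no roles. On the peak caller, thresholds and filters nothing is given in the sources used here. The labels tie the NIH3T3 BMAL1 list to 7 libraries, though its name gives 20 h alone.

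Starts are printed counting from 1. Start sites and strands were computed from peak centres and the authors' distances, which agreed within 2 bp among peaks of one start. The downstream Per1 start had 1 peak, so agreement could not be checked there. BMAL1 peaks were 5 to 100 bp wide, NIH3T3 CLOCK peaks 50 bp and liver CLOCK peaks 250 bp, so nearness was measured between centres, with 500 bp as the limit. A list's length depends on its unknown depth and threshold. Members, gene lists and limits were chosen with earlier results of these data known. Named genes were the Period genes, genes of 2 fixed lists (clock genes and proteins acting on PER) and any gene named for a BMAL1 peak within 100000 bp. Counting was tested on simulated data. Python 3.11.15 and Matplotlib 3.10.9 were used.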

Additional observations from a re-analysis of the deposited data

How the results depend on the processing

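Of 35 alternatives to the 11 counts, 25 gave a value within 1.5 times the reported one and 21 gave the same value. Part of this was fixed in advance. The 8 Period BMAL1 entries were identical in both lists, so the number shared stayed 8 at 200 bp, at 1000 bp and under overlap. All 8 lay within 1000 bp of a start, so a limit of 5000 bp had to give 8 too. BMAL1 counts without CLOCK were entered for each context from these same entries. The tally is therefore no measure of robustness. Requiring intervals to overlap by at least 1 bp lowered the Period BMAL1 peaks with CLOCK to 2 in NIH3T3 cells and 3 in liver. Joining peaks closer than 1000 bp left 4 loci in each list, all 4 of them in both contexts, of which 3 had CLOCK in NIH3T3 cells and 2 in liver. This follows from counting loci in place of peaks. With 200 bp as the limit, 4 peaks counted as lying at a start site in each context. As the lists hold no values per library, none was left out in turn, and depth and enrichment behind each peak are unknown.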

Other observations

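Hes7, a transcriptional repressor known from the oscillations of somite formation, is the single other gene named for a BMAL1 peak within 100000 bp of a Period peak. That peak, at chr11:68931530-68931579, was in the liver list alone, 19275.5 bp from the nearest Per1 peak centre and 2352 bp upstream of the Hes7 start by the authors' distance.

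The NIH3T3 CLOCK list names Per2 for 2 further lines, 324 and 458, whose peaks lay at chr6:116532475-116532524 and chr5:49009860-49009909, while Per2 is on chromosome 1. Of 670 lines whose gene matched a RefSeq symbol or a unique synonym, 574 (85.7%) named a gene on another chromosome than the peak. In the first 100 lines this was so for 27 of 78, and in the later lines for 547 of 592 (92.4%). The lines naming Per2 on chromosomes 6 and 5 were therefore not counted as Period peaks. The labels do not say how genes were assigned in this list.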
